A study of Homo sapiens with 12 samples.

Results

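Protein phosphatase 2A (PP2A) is described here through 10 of its subunit genes, read in RNA from melanoma cells that received etoposide with or without rapamycin. The 10 genes were given by name: PPP2R1A and PPP2R1B (scaffold), PPP2CA and PPP2CB (catalytic), PPP2R2A, PPP2R2B, PPP2R2C and PPP2R2D (the B55 family of regulatory subunits), and PPP2R5A and PPP2R5C (B56 family). Each matched 1 row of the 58307 rows that name a gene, and all 10 passed the expression filter in every fit. PPP2R2B leads the set because its level was lower with rapamycin in both cell lines, so the values of the 10 genes in the rapamycin comparisons are given as a description with no p-value.

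The cell lines, A375 and SK-MEL-28, were derived from human melanoma and are in wide use. Etoposide, given to all cells, traps topoisomerase II on cut DNA, and rapamycin, added in 1 group of each line, inhibits the kinase mTOR and induces autophagy. Each of the 4 groups held 3 libraries of polyA RNA, so etoposide was present in all 12 libraries and no group was untreated or had rapamycin alone. Each line stands for a single cell population, and the doses and times used for sequencing are not given in the sources used here. The study asked which transcripts change when an autophagy inducer is added to etoposide. Library totals ran from 28190672 to 32499659 counts. Median totals without and with rapamycin were 28943680 and 30128309 counts for the A375 libraries, against 30097891 and 31023972 counts for the libraries of SK-MEL-28.

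PP2A is a serine/threonine phosphatase that removes phosphate from a large share of cellular proteins. Its core is a scaffold bound to a catalytic subunit, and a regulatory subunit joins the core and decides where it acts and on which substrates. B55 subunits direct it to mitotic substrates and to kinases such as AKT, and B56 subunits to short motifs in proteins of the kinetochore, the Wnt pathway and other signalling routes. PPP2R2B, also called B55 beta, is known mainly from brain, where it is abundant. A change in transcript level does not give the amount of assembled enzyme.

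The lineage labels were checked against marker genes, in CPM (counts divided by the library size after TMM scaling). Among melanocyte lineage genes, SOX10, a lineage transcription factor, ranged from 166 to 579 CPM and S100B from 56.7 to 106 CPM, while MITF, the master regulator of pigment genes, ranged from 12.1 to 29.7 CPM. The pigment genes were near 0 in every library. TYR, the tyrosinase gene, reached at most 0.196 CPM, MLANA ranged from 0.357 to 1.37 CPM, PMEL from 1.54 to 2.99 CPM and DCT from 0.202 to 2.16 CPM. This held in the libraries labelled SK-MEL-28 as well as in those labelled A375, although SK-MEL-28 is usually described as keeping pigment gene expression, and the identity of the lines was not tested. Across 10966 genes the log2 values of replicates correlated at 0.992 to 0.994, those of the treatments within a line at 0.973 to 0.985 and those of the lines at 0.930 to 0.962. No library stood apart from its group.

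The 4 B55 genes are alike in coding sequence but share only short identical runs, which bears on how reads are assigned to PPP2R2B, the gene with the lowest mean level of the 4. Over their aligned coding bases PPP2R2B was 75.8% identical to PPP2R2A, 77.2% to PPP2R2C and 76.3% to PPP2R2D, with a longest identical run of 20, 18 and 20 bases. The most alike of the remaining pairs were PPP2CA and PPP2CB, at 83.2% with a run of 26 bases. One stretch of 60 coding bases is shown to let the reader see B55 transcripts side by side, chosen around the longest run that PPP2R2B shares with PPP2R2C, from the GENCODE release 44 transcripts (GRCh38), with bases that differ from PPP2R2B in capitals. It covers coding bases 643 to 702 of PPP2R2B and PPP2R2C and 673 to 732 of PPP2R2D.
PPP2R2B: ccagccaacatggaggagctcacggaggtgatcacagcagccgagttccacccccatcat
PPP2R2C: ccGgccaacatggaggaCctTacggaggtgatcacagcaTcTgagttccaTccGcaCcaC
PPP2R2D: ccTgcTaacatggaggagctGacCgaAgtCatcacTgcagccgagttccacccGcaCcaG
In this stretch PPP2R2C differed from PPP2R2B at 9 bases and PPP2R2D at 10, fewer than the identity of the whole coding sequences would give. PPP2R2A is not shown. PPP2R2B lies at chr5:146580742-147084784 on the minus strand of GRCh38 and spans 504 kb. The annotated genes that overlap its span, AC008728.1, RNA5SP196, RN7SL791P, KRT8P48 and PPP2R2B-IT1, held 0, 2, 0, 6 and 2 counts over all 12 libraries, against 1112 counts for PPP2R2B. The row that holds PPP2CA shares its locus with SKP1, CDKL3 and other names, and that of PPP2R1A with MIR6801, so their counts may hold reads of these neighbours.

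Levels are first compared between genes per kilobase of the principal (MANE Select) transcript. PPP2R1A was the most abundant, with a mean of 45.8 CPM per kilobase over the 12 libraries, ahead of PPP2CA at 32.7 and PPP2CB at 21.9. PPP2R2A followed at 14.95, PPP2R5C at 12.0, PPP2R5A at 8.87, PPP2R1B at 8.24 and PPP2R2D at 4.07. PPP2R2C had 1.95 and PPP2R2B 0.283 CPM per kilobase. The libraries of neighbouring genes in this order overlapped between PPP2R2A and PPP2R5C, between PPP2R5C and PPP2R5A, and between PPP2R5A and PPP2R1B, and in no other neighbouring pair.

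The choice of length moved this order, since the PPP2R2B transcript is 10828 bases long with 1332 coding bases. Per kilobase of coding sequence PPP2CA came first at a mean of 161 CPM per kilobase, with libraries that overlapped those of PPP2R1A at 139. PPP2R2B stayed last at 2.30 CPM per kilobase, with libraries that overlapped those of PPP2R2C at 6.45. It was also the gene that varied most between libraries: its highest CPM was 6.77 times its lowest. The ratio was 2.56 for PPP2R2C and 1.17 to 1.56 for the other 8 genes. These ratios span both lines and treatments, so that of PPP2R2B holds the rapamycin difference by which it was singled out.

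**Figure D1:**
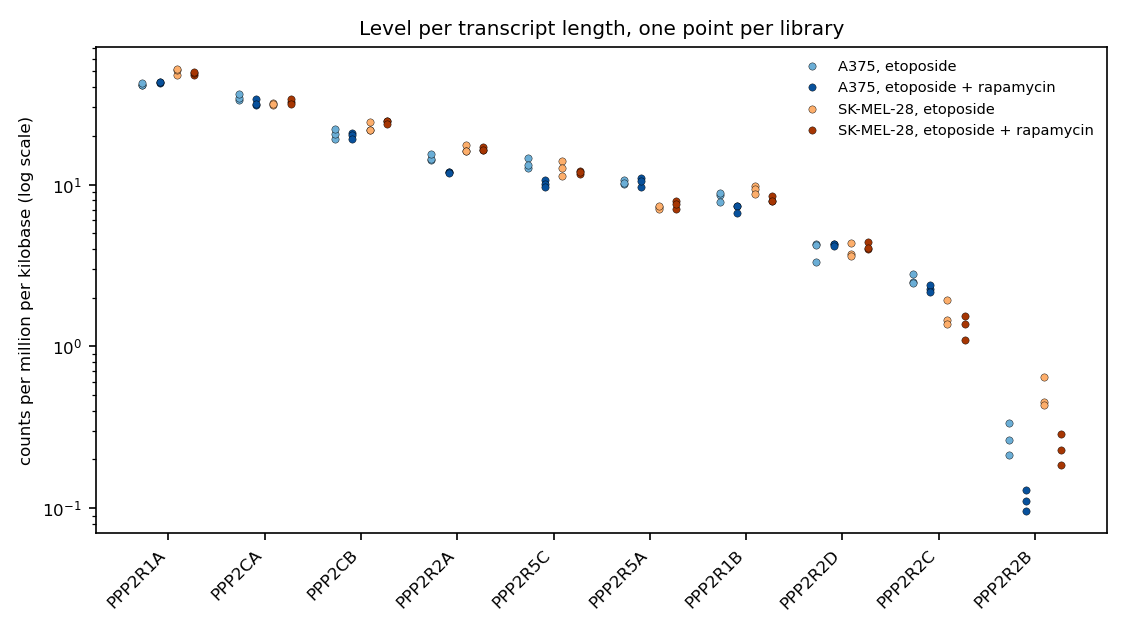
Level of the 10 PP2A subunit genes in each of the 12 libraries, in CPM per kilobase of transcript on a log axis, 1 point per library, coloured by group. PPP2R1A sits highest with a mean of 45.8 and PPP2R2B lowest with a mean of 0.283 over the 12 libraries.

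Adding rapamycin to etoposide went with a lower PPP2R2B level in both lines. In A375 its levels were 2.32, 3.64 and 2.84 CPM with etoposide (2.94 ± 0.662, SD, n = 3) and 1.40, 1.04 and 1.21 CPM with etoposide + rapamycin (1.22 ± 0.179, SD, n = 3). All 3 rapamycin libraries lay below all 3 etoposide libraries. The log2 fold change was -1.26 (SE 0.248), a level 2.40-fold lower.

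In SK-MEL-28 the PPP2R2B levels were 7.05, 4.92 and 4.67 CPM with etoposide (5.55 ± 1.31, SD, n = 3) and 3.13, 2.46 and 2.01 CPM with etoposide + rapamycin (2.54 ± 0.561, SD, n = 3). The groups did not overlap here either, and the first etoposide library stood above the other two. The log2 fold change was -1.13 (SE 0.212), a level 2.19-fold lower. The counts behind these levels were small. With rapamycin each A375 library held 31 to 40 and each SK-MEL-28 library 62 to 97, and without it 71 to 106 or 149 to 216. In bulk RNA, fewer cells that express a gene and less RNA per cell cannot be told apart.

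A call needed both a fold change over 1.5 and an adjusted p under 0.05 (Benjamini-Hochberg over all genes tested, edgeR's quasi-likelihood test). In A375 1 of the 10 genes was called, PPP2R2B, with 5.89% of all 18844 genes tested called in either direction and 2.8% called lower. In SK-MEL-28 1 of the 10 was called, again PPP2R2B, with 4.99% of all 18897 genes tested called and 3.14% called lower. Without the fold change threshold 4 of the 10 were called lower in A375 (PPP2R1B, PPP2R2A, PPP2R2B and PPP2R5C), with 13.8% of all genes called lower, and 2 in SK-MEL-28 (PPP2R1B and PPP2R2B), with 10.1% called lower. The etoposide and rapamycin libraries were apart for 5 of the 10 genes in A375, all lower, with 21.9% of all genes lower and apart, and for 2 of the 10 in SK-MEL-28, both lower, with 18.1% of all genes. Since the set was chosen from these comparisons, nothing is read from these counts.

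**Figure D2:**
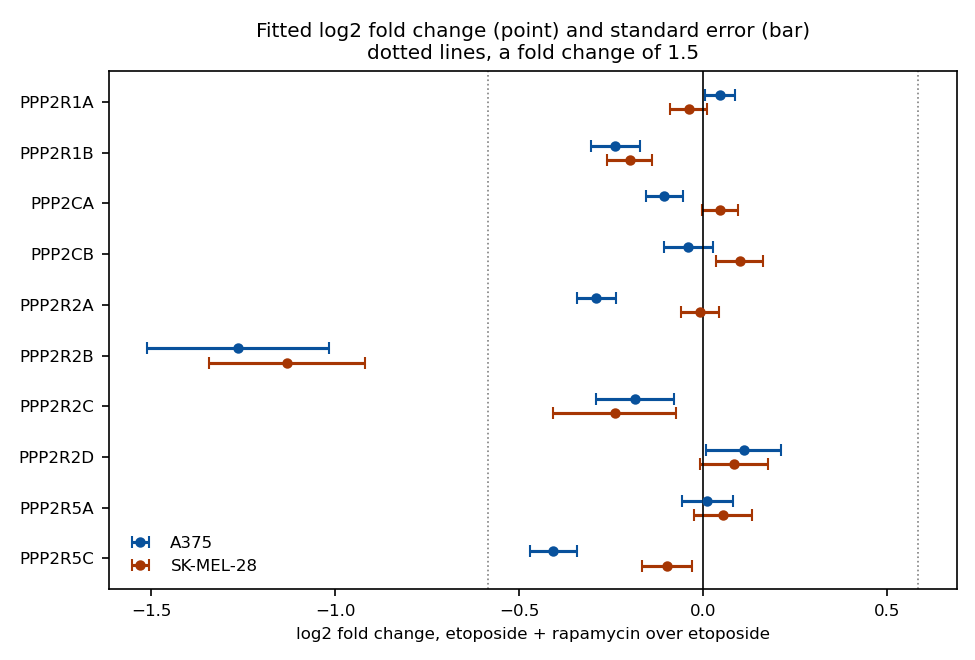
Fitted log2 fold change of the 10 genes, etoposide + rapamycin over etoposide (points) with its standard error (bars), in A375 and SK-MEL-28, with dotted lines at a fold change of 1.5 in either direction. PPP2R2B lies beyond the lower line in both cell lines and the other 9 genes lie between the lines.

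The other B55 genes differed less between the treatments. PPP2R2A, the most abundant B55 gene and a subunit used in mitotic exit, was at 55.4, 56.7 and 60.5 CPM in A375 with etoposide and 47.05, 47.1 and 46.4 CPM with etoposide + rapamycin, and its log2 fold change was -0.29 (SE 0.054). In SK-MEL-28 it was at 68.6, 63.6 and 63.7 CPM and at 64.5, 66.8 and 63.9 CPM, a log2 fold change of -0.01 (SE 0.052). Its groups were apart in A375 and overlapped in SK-MEL-28.

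PPP2R2C, a B55 subunit described in brain like PPP2R2B, was at 12.5, 11.1 and 11.02 CPM in A375 with etoposide and 10.0, 10.7 and 9.59 CPM with etoposide + rapamycin, and its log2 fold change was -0.19 (SE 0.106). In SK-MEL-28 it was at 6.43, 8.62 and 6.10 CPM and at 6.87, 4.89 and 6.14 CPM, a log2 fold change of -0.24 (SE 0.168) that ran from -0.35 to -0.07 with 1 library left out, -0.07 being without the second etoposide library and -0.12 without the second rapamycin library. The A375 groups did not overlap and the SK-MEL-28 groups did. PPP2R2D, a widely expressed B55 subunit, had a log2 fold change of 0.11 (SE 0.101) in A375 and 0.08 (SE 0.093) in SK-MEL-28, and its groups overlapped in both lines. With 1 library left out these values ran from 0.0015 to 0.18 in A375 and from 0.029 to 0.17 in SK-MEL-28.

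Within the B55 family PPP2R2B made up a small share of the summed level per coding kilobase. In A375 its share was 3.17% ± 0.64 (SD, n = 3) with etoposide, against 1.52% ± 0.225 (SD, n = 3) once rapamycin was added. In SK-MEL-28 it was 5.66% ± 1.16 (SD, n = 3) and 2.67% ± 0.574 (SD, n = 3). Per kilobase of whole transcript the same shares were 1.26%, 0.605%, 2.26% and 1.05%. For PPP2R2A the share of the B55 sum per coding kilobase was 61.8% and 58.0% for A375 libraries against 66.2% and 68.1% for SK-MEL-28. The B55 sum itself was 69.2 ± 3.41 and 60.1 ± 0.963 CPM per coding kilobase in A375 (SD, n = 3), groups that did not overlap, and 73.4 ± 2.19 and 71.1 ± 1.55 in SK-MEL-28 (SD, n = 3), groups that did.

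**Figure D3:**
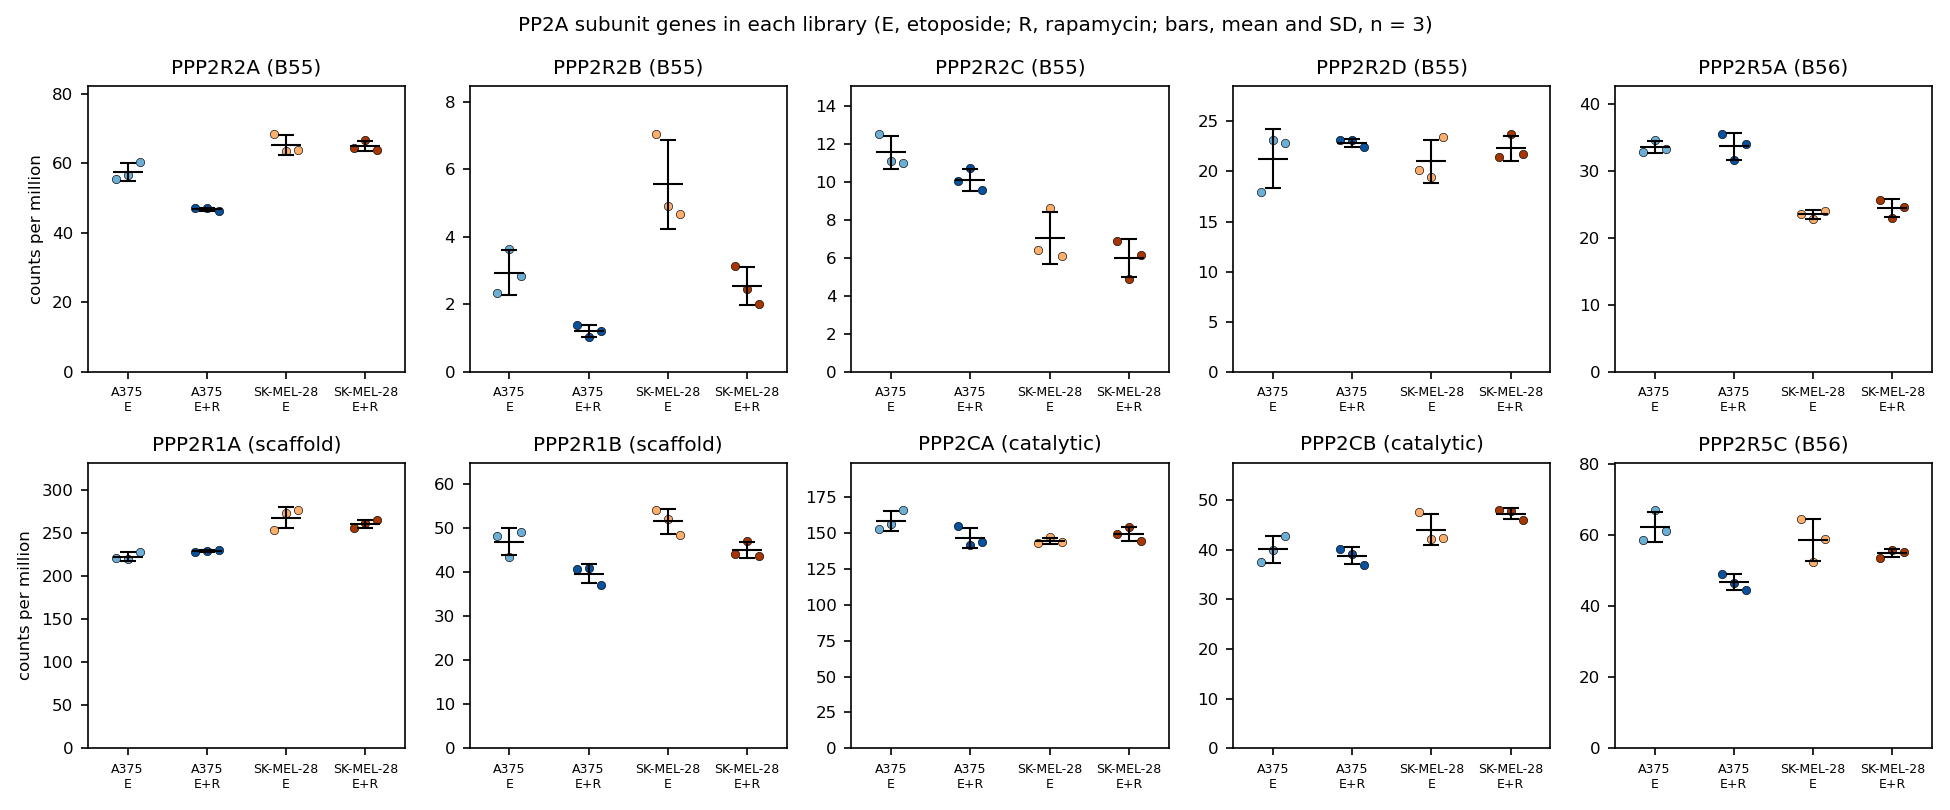
CPM of the 10 PP2A subunit genes in each library, by cell line and treatment (E, etoposide; R, rapamycin), with the mean and SD of 3 libraries as bars and each axis starting at 0. PPP2R2B libraries with rapamycin lie below those without it in both lines, from 1.04 to 1.40 against 2.32 to 3.64 in A375 and from 2.01 to 3.13 against 4.67 to 7.05 in SK-MEL-28.

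Of the B56 genes, PPP2R5C was at 58.7, 67.1 and 61.2 CPM in A375 with etoposide and at 49.3, 46.6 and 44.7 CPM with etoposide + rapamycin, and its log2 fold change was -0.41 (SE 0.063). In SK-MEL-28 its libraries overlapped, at 64.6, 52.6 and 58.8 CPM and at 53.7, 55.9 and 55.4 CPM, with a log2 fold change of -0.10 (SE 0.069). PPP2R5C encodes B56 gamma, a subunit implicated in p53 regulation. PPP2R5A, B56 alpha, a subunit known for acting on MYC, had a log2 fold change of 0.01 (SE 0.070) in A375 and 0.05 (SE 0.078) in SK-MEL-28, with overlapping groups in both lines.

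The core enzyme genes differed little. PPP2R1A, the main scaffold gene, had a log2 fold change of 0.04 (SE 0.041) in A375 and -0.04 (SE 0.050) in SK-MEL-28. The catalytic gene PPP2CA had -0.11 (SE 0.051) and 0.04 (SE 0.049), and PPP2CB -0.04 (SE 0.067) and 0.10 (SE 0.064), in the same order. The groups of these 3 genes overlapped in both lines.

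PPP2R1B, the less abundant scaffold gene, was at 48.2, 43.4 and 49.2 CPM in A375 with etoposide and at 40.8, 41.0 and 37.1 CPM with etoposide + rapamycin, and its log2 fold change was -0.24 (SE 0.067). In SK-MEL-28 it was at 54.1, 52.1 and 48.3 CPM and at 44.1, 47.0 and 43.7 CPM, a log2 fold change of -0.20 (SE 0.061). Besides PPP2R2B it was the only member whose groups were apart in both lines. No share of all genes apart in both lines stands beside this, and the set was chosen from these comparisons, so nothing is read from it. The PPP2R1B share of the scaffold sum per transcript kilobase was 16.9% ± 0.752 and 14.3% ± 0.728 for A375, against 15.6% ± 1.32 and 14.2% ± 0.528 for SK-MEL-28 (SD, n = 3 each).

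Some markers of other cell types were also lower with rapamycin. All 3 fibroblast markers were lower and apart in both lines, as were, over all genes, 21.9% (A375) and 18.1% (SK-MEL-28), and their summed level ran from 13.3 to 16.8 CPM and from 8.36 to 9.39 CPM in A375, and from 25.0 to 32.4 CPM and from 16.3 to 19.6 CPM in SK-MEL-28. LUM was the most abundant of them, at 3.92 to 28.9 CPM over the 12 libraries, and COL1A1 stayed at 0.490 to 2.35 CPM. Both endothelial markers were lower and apart as well, with sums of 4.84 to 6.51 and 3.83 to 4.197 CPM in A375 and of 2.58 to 2.97 and 1.53 to 1.82 CPM in SK-MEL-28, PECAM1 the more abundant and CDH5 at most 0.850 CPM. The sums of the keratinocyte and leukocyte markers were lower and apart in SK-MEL-28, from 6.59 to 7.80 against 4.93 to 6.27 CPM and from 0.457 to 0.668 against 0 to 0.260 CPM, and overlapped in A375. Of these markers KRT14 was at 4.84 to 9.98, KRT5 at most 0.264, and PTPRC and CD3E at most 0.632 CPM. The melanocyte sum overlapped between treatments in both lines. Of its 7 markers 3 were lower and apart in A375 (MITF, DCT and S100B), while in SK-MEL-28 2 were lower (MITF and MLANA) and 1 higher (PMEL). The part of these genes in the PPP2R2B difference was not tested.

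The rapamycin response of the 10 genes was set side by side between the lines, a comparison built from the same contrasts and so also given with no p-value of a single gene. None of the 10 was called for a different response in edgeR or DESeq2, with 1.62% of all 20101 genes tested called by edgeR. In edgeR 3 of the 10 had an unadjusted p under 0.05, as had 20.4% of all genes, and nothing is read from this count. For PPP2R2B the response of SK-MEL-28 less that of A375 was 0.14 on the log2 scale (SE 0.328), within its standard error. PPP2R2A had 0.29 (SE 0.073) and PPP2R5C 0.32 (SE 0.100), and both were lower with rapamycin in A375. In SK-MEL-28 the log2 fold change was -0.01 for PPP2R2A and -0.10 for PPP2R5C (-0.17 to -0.02 with 1 library left out). Without the fold change threshold PPP2R2A alone of the 10 was called, with 5.62% of all genes called by that rule.

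The comparison of the lines averages over both treatments and does not use the difference by which PPP2R2B was singled out, so it was tested. PPP2R2B was higher in SK-MEL-28 than in A375 and PPP2R2C was lower. PPP2R2B had a median of 3.90 CPM in SK-MEL-28 (2.01 to 7.05, n = 6) and 1.86 CPM in A375 (1.04 to 3.64, n = 6). The log2 fold change was 0.99 (SE 0.166; adjusted p = 0.000104, Benjamini-Hochberg adjustment, edgeR's quasi-likelihood test). The 6 libraries of each line overlapped over the treatments, but within a treatment they did not. The log2 fold change was 0.92 with etoposide alone and 1.06 with etoposide + rapamycin.

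PPP2R2C had a median of 6.29 CPM in SK-MEL-28 (4.89 to 8.62, n = 6) and 10.9 CPM in A375 (9.59 to 12.5, n = 6), and its lines did not overlap. The log2 fold change was -0.74 (SE 0.101; edgeR adjusted p = 1.33e-05). The brain-type B55 genes thus differed in opposite directions between the lines. Together these were 2 of the 10 genes called, with 15.2% of all 20101 genes called.

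By adjusted p alone (edgeR's quasi-likelihood test) 7 of the 10 passed, with 46.1% of all genes. Besides PPP2R2B and PPP2R2C, 5 of the 10 passed with a fold change under 1.5. PPP2R2A was higher in SK-MEL-28, with a median of 64.2 CPM (63.6 to 68.6, n = 6) against 51.3 CPM (46.4 to 60.5, n = 6), and the lines did not overlap. Its log2 fold change was 0.33 (SE 0.037; edgeR adjusted p = 1.24e-06), with 0.18 for the etoposide libraries and 0.47 for those with rapamycin. PPP2R5A was lower, with a median of 23.8 CPM (22.8 to 25.6, n = 6) against 33.6 CPM (31.5 to 35.5, n = 6), and a log2 fold change of -0.49 (SE 0.048; edgeR adjusted p = 2.39e-07).

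PPP2R1A was also higher in SK-MEL-28 and apart, at 0.23 on the log2 scale (SE 0.030; edgeR adjusted p = 7.27e-06), in libraries of 254 to 277 CPM against 220 to 230 CPM. PPP2R1B at 0.16 (SE 0.046; edgeR adjusted p = 0.00906) and PPP2CB at 0.21 (SE 0.046; edgeR adjusted p = 0.00118) were higher in SK-MEL-28 with libraries that overlapped, and neither passed with the etoposide libraries alone (edgeR adjusted p = 0.128 and 0.126). PPP2CA at -0.05 (SE 0.034; edgeR adjusted p = 0.235), PPP2R2D at -0.03 (SE 0.070; edgeR adjusted p = 0.775) and PPP2R5C at 0.07 (SE 0.050; edgeR adjusted p = 0.262) did not pass the test over both treatments. The lines did not overlap for 2 genes that were higher in SK-MEL-28 and 2 that were lower, with 8.47% and 9.61% of all genes in these classes.

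The genes around PP2A were described from 5 lists of 56 genes in all, and every one passed the expression filter. The rows of PPME1, PPP4R2, PPP6R1, AKT2, FOXO1 (with LINC00598), KSR1 (with LGALS9 and AC015688.5) and BUB1B (with PAK6) share their loci with other gene names, so their counts may hold reads of these neighbours. With rapamycin 1 of the 56 was called in each line, both higher, against 5.89% of all genes tested in A375 and 4.99% in SK-MEL-28. In A375 this was PPP2R3B, a regulatory subunit of the PR72 family, which was at 10.1, 9.78 and 8.35 CPM with etoposide and at 14.5, 14.8 and 16.4 CPM with etoposide + rapamycin. All rapamycin libraries were above all etoposide libraries, and the log2 fold change was 0.70 (SE 0.109; adjusted p = 0.000496, Benjamini-Hochberg adjustment, edgeR's quasi-likelihood test). In SK-MEL-28 PPP2R3B was at 9.11, 8.62 and 8.74 CPM and at 12.2, 13.1 and 13.3 CPM, also apart, with a log2 fold change of 0.54 (SE 0.101; edgeR adjusted p = 0.00241) that stayed under the fold change threshold.

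The gene called in SK-MEL-28 was PPP4R4, a regulatory subunit of the related phosphatase PP4, at 2.94, 3.24 and 3.73 CPM with etoposide and at 5.00, 5.32 and 5.00 CPM with etoposide + rapamycin. The groups were apart, and the log2 fold change was 0.62 (SE 0.156; edgeR adjusted p = 0.0139). Without the first etoposide library it was 0.55, under the fold change threshold (edgeR adjusted p = 0.0497). In A375 the PPP4R4 log2 fold change was 0.21 (SE 0.134; edgeR adjusted p = 0.285).

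By adjusted p alone 23 of the 56 genes passed in A375, 9 higher and 14 lower, against 28.1% of all genes. In SK-MEL-28 15 passed, 7 higher and 8 lower, against 19% of all genes. Of all 18844 genes tested in A375 2691 were higher and 2604 lower, and of all 18897 in SK-MEL-28 1668 and 1914. The counts of each list given below stand beside these, and nothing is read from them. The 56 had a median log2 fold change of -0.02 and -0.04 in the same order, and all genes tested one of -0.01 and 0.01. The same 8 genes passed in both lines, each in the same direction: PPP2R3B, IGBP1, BOD1 and AKT1 were higher, and PPME1, CCNG2, PPP4R2 and PPP4R3B were lower. They were 34.8% of the listed genes that passed in A375 and 53.3% of those that passed in SK-MEL-28, close to the 37.4% and 55.6% for all genes, of which 10.8% passed in both lines in the same direction. These 8 were picked after their values were seen, and nothing about the list is read from their number.

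Regulators of PP2A held the largest of these differences beside PPP2R3B, by log2 fold change in the lower of the 2 lines. IGBP1, the alpha4 protein that holds and protects free catalytic subunits, was at 70.05, 75.8 and 73.9 CPM and at 103, 101 and 101 CPM in A375, and at 65.3, 59.6 and 62.0 CPM and at 86.8, 94.3 and 85.2 CPM in SK-MEL-28. Its groups were apart in both lines, with log2 fold changes of 0.48 (SE 0.048; edgeR adjusted p = 1.81e-05) and 0.51 (SE 0.055; edgeR adjusted p = 4.03e-05). PPME1, the methylesterase that removes the methyl group from the catalytic subunit, was at 118, 108 and 111 CPM and at 87.2, 81.8 and 85.1 CPM in A375, and at 154, 152 and 149 CPM and at 108, 106 and 108 CPM in SK-MEL-28.

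The PPME1 groups were likewise apart, with log2 fold changes of -0.40 (SE 0.050; edgeR adjusted p = 0.000106) and -0.50 (SE 0.048; edgeR adjusted p = 1.41e-05). BOD1, a kinetochore protein that restrains PP2A-B56, had 0.26 (SE 0.067; edgeR adjusted p = 0.0129) and 0.43 (SE 0.072; edgeR adjusted p = 0.00126). Of the 13 regulators 2 were higher and 3 lower by adjusted p in A375, and 2 higher and 1 lower in SK-MEL-28, with medians of 0.08 and 0.07. SET, an inhibitor protein of PP2A, and ENSA, which blocks PP2A-B55 in mitosis, were the most abundant regulators by count and did not pass in either line, at 0.11 (SE 0.045) and 0.13 (SE 0.052) for SET and -0.11 (SE 0.049) and -0.07 (SE 0.049) for ENSA.

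Over the 56 genes the log2 fold changes ran from -0.43 to 0.70 in A375 and from -0.53 to 0.62 in SK-MEL-28. Of 9 other PP2A subunits 2 were higher and 2 lower by adjusted p in A375, and 2 higher and 1 lower in SK-MEL-28. The striatin gene STRN had log2 fold changes of -0.16 (SE 0.072) and -0.18 (SE 0.073), neither past the test, and STRN4 had 0.28 (SE 0.048; edgeR adjusted p = 0.00102) in A375 and 0.09 (SE 0.052) in SK-MEL-28. Of 11 STRIPAK partners, which join striatins in a kinase and phosphatase complex, 1 was higher and 3 lower in A375, and 1 was lower in SK-MEL-28. The kinase genes STK24 and STK25 were the most abundant by count, and STK25 passed in A375 at 0.17 (SE 0.051; edgeR adjusted p = 0.0228).

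Of 10 genes of PP4 and PP6, phosphatases with catalytic subunits like that of PP2A, 1 was higher and 3 lower in A375, and 1 higher and 2 lower in SK-MEL-28. PPP4R2 had log2 fold changes of -0.32 (SE 0.052; edgeR adjusted p = 0.000689) and -0.17 (SE 0.053; edgeR adjusted p = 0.0371), and PPP4R3B, another PP4 subunit, had -0.32 (SE 0.050; edgeR adjusted p = 0.000553) and -0.17 (SE 0.053; edgeR adjusted p = 0.0396). The most abundant by count, PPP4C and PPP6R1, did not pass in either line.

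Among 13 substrates and partners 3 were higher and 3 lower by adjusted p in A375, and 2 higher and 3 lower in SK-MEL-28. AKT1, a kinase that PP2A-B55 dephosphorylates, had 0.34 (SE 0.049; edgeR adjusted p = 0.000291) and 0.20 (SE 0.052; edgeR adjusted p = 0.0168). AKT2 had 0.27 (SE 0.051; edgeR adjusted p = 0.00188) in A375 and 0.04 (SE 0.055) in SK-MEL-28. CCNG2, a cyclin that binds B56-containing PP2A, had -0.37 (SE 0.092; edgeR adjusted p = 0.0101) and -0.53 (SE 0.108; edgeR adjusted p = 0.00455). CTNNB1, the beta-catenin gene, had -0.20 (SE 0.041; edgeR adjusted p = 0.00282) in A375 and -0.07 (SE 0.048) in SK-MEL-28.

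**Figure D4:**
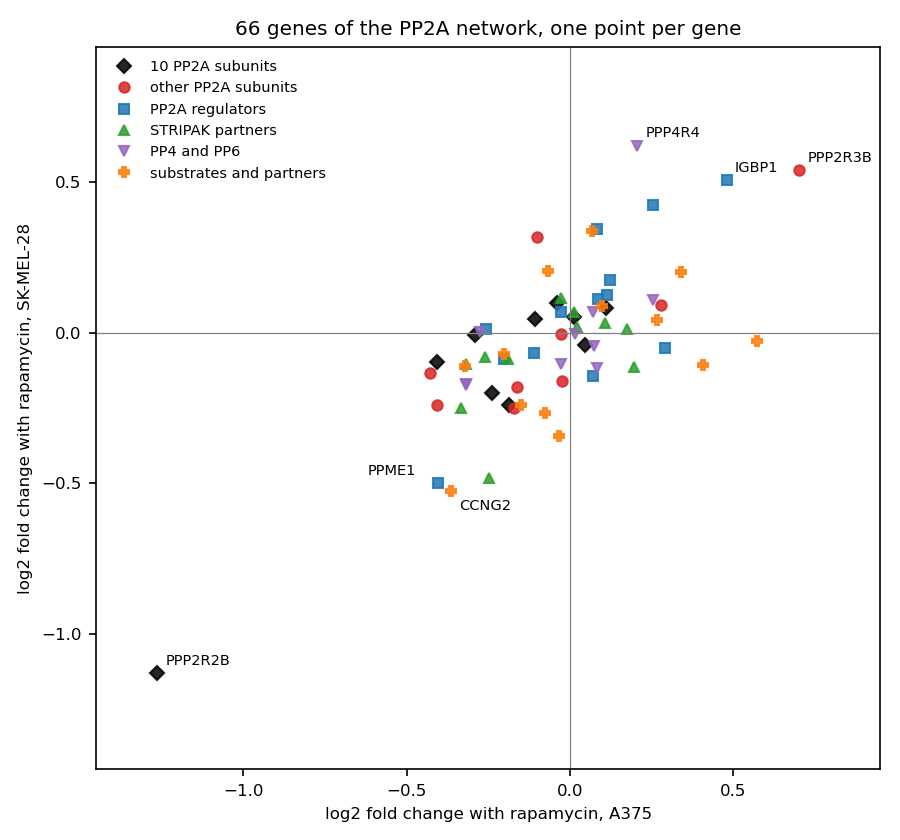
Log2 fold change with rapamycin in A375 (x axis) and SK-MEL-28 (y axis) of the 10 subunit genes and the 56 listed genes, 1 point per gene, coloured by list. PPP2R2B lies at -1.26 and -1.13, while PPP2R3B, IGBP1 and PPP4R4 lie above 0 in both lines and PPME1 and CCNG2 below 0 in both.

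Between the lines 3 of the 56 genes were called, against 15.2% of all genes tested. FOXO1, a transcription factor held in the cytoplasm by AKT, was lower in SK-MEL-28, at 12.9 to 18.6 CPM against 31.4 to 38.4 CPM in A375, and KSR1, a scaffold of the RAF pathway, at 11.9 to 14.8 CPM against 18.3 to 25.0 CPM. SIKE1, a STRIPAK partner, was higher, at 50.5 to 55.9 CPM against 31.0 to 40.5 CPM, and the lines were apart for all 3 genes. The log2 fold changes were -1.10 (SE 0.064; edgeR adjusted p = 3.14e-10), -0.66 (SE 0.073; edgeR adjusted p = 1.10e-06) and 0.59 (SE 0.040; edgeR adjusted p = 2.52e-09). The SIKE1 value sat at the fold change threshold of 1.5 and fell under it in 6 of the 12 fits that left out 1 library. By adjusted p alone 26 of the 56 passed, 8 higher and 18 lower in SK-MEL-28, against 46.1% of all genes tested.

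The genes most like PPP2R2B across the 12 libraries were EMC7, ERLEC1, MPHOSPH6, CADM3 and ADAM23, with Pearson correlations of log2 CPM of 0.971, 0.967, 0.964, 0.963 and 0.962 among 16647 genes compared. The libraries share the 4 groups, so a correlation here mostly reflects the same order of groups, and 325 genes passed 0.9. Within the groups the correlations of these 5 genes were 0.72, 0.75, 0.70, 0.59 and 0.61. The correlation that picked these genes already holds this part, and no value over all genes stands beside it. Nothing is read from these within-group values. All 5 were lowest in A375 with etoposide + rapamycin and highest in SK-MEL-28 with etoposide, as PPP2R2B was. CADM3, a cell adhesion gene, came closest in size, with log2 fold changes with rapamycin of -1.34 (SE 0.111) in A375 and -1.38 (SE 0.119) in SK-MEL-28. EMC7, a subunit of the endoplasmic reticulum membrane protein complex, had -0.27 (SE 0.053) and -0.26 (SE 0.052), and ERLEC1, an endoplasmic reticulum lectin, had -0.33 (SE 0.052) and -0.21 (SE 0.054). MPHOSPH6, a partner of the RNA exosome, had -0.45 (SE 0.126) and -0.51 (SE 0.105), and ADAM23, a cell surface protein of the disintegrin family, had -0.52 (SE 0.063) and -0.46 (SE 0.052).

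**Figure D5:**
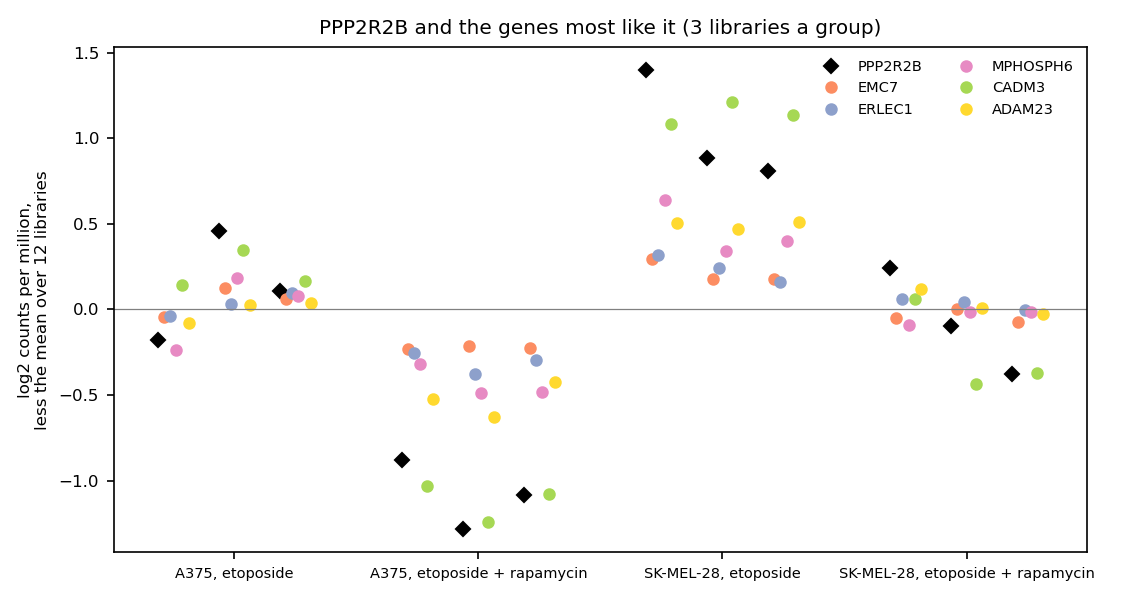
Log2 CPM of PPP2R2B (diamonds) and of the 5 genes most like it (circles) in each library, each gene less its mean over the 12 libraries, by group. PPP2R2B and CADM3 spread the widest, and all 6 genes are lowest in A375 with etoposide + rapamycin.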

How the data were processed

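PolyA RNA from 12 libraries was sequenced. The authors aligned reads with HISAT2, estimated expression with StringTie and the Ensembl release 90 annotation (GRCh38), and deposited raw counts of genes in each library with no normalization. How coverage became counts, and whether strand was used, is not given in the sources used here. In all 12 libraries the total exceeds the clean reads that the study lists, so totals are not read numbers. A PPP2R2B count need not be 1 fragment. The standard errors and p-values of the fits use the spread between replicates and also the size of the counts, so they depend on this step. The study names 3 biological replicates per group for sequencing, and the labels do not say how these were grown. The 5 of 58312 rows without a gene name (0.000991% to 0.00529% of counts) were left out.

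Tests used edgeR 4.0.16 in R 4.3.3 (filterByExpr with a minimum count of 10, TMM, quasi-likelihood test, Benjamini-Hochberg over all genes tested), with calls at the thresholds of the study, a fold change over 1.5 with an adjusted p below 0.05. Each cell line was fitted alone for rapamycin. One fit of 12 libraries gave the difference of the responses and SK-MEL-28 against A375 averaged over treatments. Standard errors were the size of the log2 fold change over the root of F. CPM uses TMM-scaled library sizes, and log2 CPM a prior count of 2. Positions, lengths and coding sequences came from GENCODE release 44. The fit was tested on simulated data with 200 genes changed, 100 of them 2-fold and 100 4-fold. Of the 100 changed 2-fold it recovered 87 in A375, 87 in SK-MEL-28, 92 between the lines and 73 for the difference of the responses. Over the whole simulation there were 1, 4, 1 and 18 false calls in that order. Every simulated gene had the same spread beyond counting, so these numbers do not give the recovery of PPP2R2B or of any single gene.

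The 10 genes, the 5 lists and the tests were chosen with earlier results of these data known. Named were the 10 genes, listed genes called in a comparison, the 2 most abundant of each list and the 5 genes most like PPP2R2B with a mean of at least 20 counts. Genes past the adjusted p in both lines and those whose response differed between the lines were added after their values were seen. The values of 1 listed gene are not reported here. Alternatives were DESeq2 1.42.0, RLE normalization, library totals, a filter of 1 count, a joint fit of 12 libraries, a block for the replicate number, rows of one symbol summed, each treatment alone, calls with no fold change threshold, and leaving out each library in turn.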

Additional observations from a re-analysis of the deposited data

Results flagged for a closer look

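In 2 of the listed genes described here A375 and SK-MEL-28 responded differently to rapamycin, by adjusted p alone. Both stayed under the fold change threshold of 1.5 (edgeR's quasi-likelihood test of the difference, Benjamini-Hochberg adjustment). By adjusted p alone 3 of the 56 passed, against 5.62% of all 20101 genes tested, and nothing about the list is read from this count. The difference, SK-MEL-28 less A375 on the log2 scale, was 0.43 (SE 0.114; edgeR adjusted p = 0.0370) for PPP2R3C, a PR72-family subunit at 18.9, 19.2 and 20.8 CPM with etoposide and 17.1, 18.1 and 19.3 CPM with rapamycin added in A375, against 15.6, 15.002 and 14.6 CPM, then 18.3, 18.5 and 19.7 CPM in SK-MEL-28. It was 0.29 (SE 0.069; edgeR adjusted p = 0.0226) for PPP6C, the catalytic gene of PP6, whose log2 fold changes were -0.28 in A375 and 0.003 for SK-MEL-28. For PPP6R1, a PP6 regulatory subunit, the 3 rapamycin libraries lay above the 3 etoposide libraries in A375 and below them in SK-MEL-28, and the difference of -0.19 (SE 0.057) did not pass the test (edgeR adjusted p = 0.0591). None of the 56 listed genes passed both thresholds for this difference in edgeR, 1 did in DESeq2, and 19 had an unadjusted p under 0.05 in edgeR, against 20.4% of all genes tested, with no test of the difference. Groups of 3 libraries allowed only a limited check of single outlying libraries, by correlation and by leaving out each library in turn.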

How the results depend on the processing

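PPP2R2B kept the direction of its rapamycin difference under all 14 alternatives run in each line, at -1.41 to -1.08 on the log2 scale in A375 and -1.31 to -0.92 in SK-MEL-28, and its call between the lines under all 21, at 0.88 to 1.08. The fold change threshold decided how many genes were called: without it 5295 genes were called in A375, 3582 in SK-MEL-28, 1130 for the difference of the responses and 9261 between the lines, and 23, 15, 3 and 26 of the 56 listed genes in that order. Scaling by library totals moved the A375 split from 582 higher and 527 lower to 468 and 659, and that of SK-MEL-28 from 349 and 594 to 292 and 673, while no scaling moved the median of all genes by over 0.1. With DESeq2 1 listed gene, BUB1B, was called for the difference of the responses.

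With 1 library left out, the listed genes called ran from 1 to 2 in A375 (BUB1B was added without the first rapamycin or the second etoposide library), from 0 to 2 in SK-MEL-28 (PPP4R4 was lost without the first etoposide library, CCNG2 was added without the second library of either treatment, and STRIP2 without the first rapamycin library) and from 0 to 1 for the difference of the responses (BUB1B without the second SK-MEL-28 rapamycin library). BUB1B and STRIP2 were chosen after their values were seen. Among tested values the sign turned near 0: with rapamycin, STK24 in A375 (-0.032 with library totals, -0.0028 to 0.040 with 1 library left out), STK25 in SK-MEL-28 (-0.021 with library totals, -0.013 to 0.034 with 1 left out) and AKT2 in SK-MEL-28 (-0.0065 to 0.072 with 1 left out), and between the lines PPP2R2D (-0.085 to 0.0068 with 1 left out), PPP2CA (0.028 with etoposide + rapamycin only) and PPP2R5C (-0.087 with etoposide only). None passed the test where its sign had turned, but by adjusted p alone PPP2CA passed with etoposide only (-0.13; edgeR adjusted p = 0.0471) and PPP2R5C with etoposide + rapamycin only (0.23; edgeR adjusted p = 0.0169). Among the untested subunit values the sign turned over the alternatives for the rapamycin differences of PPP2R1A (-0.00042 to 0.062), PPP2CB (-0.086 to 0.0095) and PPP2R5A (-0.034 to 0.058) in A375 and of PPP2R2A in SK-MEL-28 (-0.043 to 0.029), and for the differences of the responses of PPP2R2B (-0.05 to 0.35), PPP2R2C (-0.16 to 0.12) and PPP2R2D (-0.090 to 0.077). The cause was not tested.

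Same-numbered libraries of the treatments did not deviate together (correlations of -0.030 to 0.021), and the main fits did not pair them. This cannot show that they were grown or handled apart. With the replicate block 1034 genes were called in A375, 897 in SK-MEL-28, 244 for the difference and 3033 between the lines, all within 1.5 times the counts without it. Limits are the 3 libraries a group, the small PPP2R2B counts (31 to 216 a library) with a standard error of 0.328 on the log2 scale for the difference of its responses, and a counting step that is not given in the sources used here.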
